A study of Homo sapiens with 8 samples.

Results

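The nuclear genes for the subunits of the mitochondrial respiratory chain and the ATP synthase were followed in 4 kidney cancer lines exposed to A939572. Members were taken by gene symbol: every probe set whose single platform symbol began with NDUFA, NDUFB, NDUFC, NDUFS, NDUFV, UQCR, COX4, COX5, COX6, COX7, COX8 or ATP5, or was SDHA, SDHB, SDHC, SDHD or CYC1, with pseudogenes and the NDUFAF assembly factors left out. This gave 81 genes of the 19775 with a probe set, measured by 156 probe sets. Of these, 76 encode subunits: 33 of complex I, 3 of complex II, 7 of complex III, 16 of complex IV and 17 of complex V. The other 5 encode no subunit and are given apart: the ATP synthase inhibitor gene ATP5IF1, COX7A2L, the antisense genes NDUFB2-AS1 and NDUFV2-AS1, and the divergent transcript NDUFV1-DT. Other subunit genes were not analysed here.

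The cells were the established human renal carcinoma lines ACHN, CAKI2, A498 and CAKI1, described by the submitters as clear cell carcinoma. Each line gave 1 array of cells exposed for 24 h to A939572 at 75 nM, a compound that blocks stearoyl-CoA desaturase 1, the enzyme that introduces a double bond into saturated fatty acids, and 1 array of cells given DMSO, the solvent, for the same time, so that each group holds 4 arrays. All cells were grown in the same serum-supplemented medium. The study compared each treated line with its own DMSO control and then compared the responses between lines. The labels name no separate cultures within a line. The 4 lines are therefore the replicates. The p-values for the treatment rest on how its effect varied between these lines, with variances moderated across genes. Those for differences between lines, given further below, rest on 2 arrays per line that differ in treatment.

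The respiratory chain sits in the inner mitochondrial membrane. Complexes I and II pass electrons from NADH and succinate to ubiquinone, complex III passes them on to cytochrome c, complex IV hands them to oxygen, and complex V uses the resulting proton gradient to make ATP. Most subunits are encoded in the nucleus and imported, while a few core subunits of complexes I, III, IV and V are encoded in mitochondrial DNA. Clear cell renal carcinomas are known for strong glycolysis and low oxidative metabolism.

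The summed signal of the renal tubule and carcinoma markers, with VIM as the largest part, was 15.80 to 16.30 on the log2 scale with DMSO and 15.76 to 16.24 with A939572. PAX8 rose, by 0.38 ± 0.19 (SD, n = 4 lines; adjusted p = 0.0294 in limma), while KRT8 had -0.49 ± 0.47 and KRT18 -0.33 ± 0.37, with no call. Of these markers PAX8, KRT8, KRT18, CDH2 and VIM were bright on every array, PAX8 at 11.97 to 13.02, whereas LRP2 and CDH16, markers of the differentiated tubule, had means below the level required for testing. EPCAM and PAX2 were dim on some arrays, with levels from 6.57 to 12.79 and from 5.88 to 9.49, and neither was called. No leukocyte or muscle marker with a probe set (3 and 4 of them) reached that level, and the endothelial list had 1 of 4 above it, PECAM1, which differed by -0.21 ± 0.20 in log2 terms (SD over 4 lines; adjusted p = 0.46 in limma). Fibroblast markers had 2 of 6 above it, COL1A1 and FBLN1, and both fell (-1.04 ± 0.36 and -0.86 ± 0.23, SD, n = 4 lines; adjusted p = 0.00318 and 0.00763). The summed signal of the fibroblast list was 9.58 to 11.47 with DMSO and 9.05 to 10.76 with A939572. On the arrays' own control for RNA length, the 3′ over 5′ ratio of the ACTB probe sets lay between 2.12 and 2.33 with DMSO and between 3.02 and 4.22 with A939572, higher in 4 of 4 lines. That of GAPDH lay between 0.962 and 1.05 with DMSO and between 1.01 and 1.11 with A939572. These ratios moved with the treatment, and their part in the subunit differences below was not tested. Each array came from a single cell line, and a bulk RNA measurement cannot tell fewer cells that carry an RNA from less of it per cell.

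A939572 was accompanied by lower mRNA levels of subunits of all 5 complexes, and no subunit rose. Of the 76 subunits, 71 had a mean level of at least 6.41 on the log2(signal + 16) scale, the median of all probe sets, and were tested. In a limma fit over all 12093 genes tested, with the cell line as a block, 42 of the 71 subunits were lower at a Benjamini-Hochberg adjusted p under 0.05, 0 were higher and 29 were not called. At an unadjusted p under 0.05 the counts were 51 lower and 0 higher. Over all genes, 15.9% were lower and 14.7% were higher. The subunits' median log2 difference, A939572 minus DMSO, was -0.38, beside -0.03 over all genes.

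All but 2 of the tested subunits are bright, and bright genes are called more often. Among the 5936 genes with a mean level of at least 9.5, a value set after the levels had been seen, 20.7% were lower and 20.5% were higher, against 42 of 69 subunits (60.9%) lower and 0 higher. The mean difference was below 0 in 68 of 71 subunits, and in 57 it was below 0 in all 4 lines. The exceptions were NDUFAB1 at 0.12, the muscle isoform COX6A2 at 0.11 and NDUFS1 at 0.02, none of them called. In 9 subunits every DMSO array was above every A939572 array, which is 12.7% of the 71, beside 4.94% of all genes: NDUFA7, NDUFA13, NDUFB1, NDUFB6, UQCR10, COX5A, ATP5MC3, ATP5ME and ATP5MJ. At a mean level of at least 9.5 these shares were 13% of the subunits and 6.22% of all genes. With arrays centred on their medians and not quantile normalized, 47.9% of the subunits were lower, while over all genes the split moved from 1928 lower and 1778 higher to 1544 lower and 2163 higher. Without the variance trend 23 of 71 subunits were lower (32.4%), beside 13.5% of all genes. The fit without the cell line as a replicate block called 0 subunits (16 lower and 0 higher at an unadjusted p under 0.05), and 29 genes lower and 38 higher in all.

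**Figure D1:**
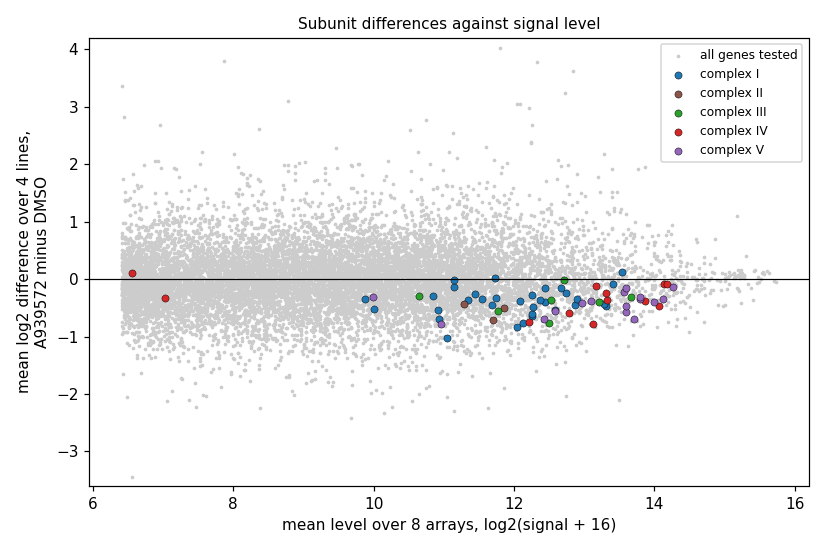
Mean log2 difference over the 4 lines (vertical axis) against the mean level over the 8 arrays as log2(signal + 16) (horizontal axis), with all 12093 tested genes in grey and the 71 tested subunits coloured by complex. Nearly all subunits lie to the right of 9.5 and below 0, between -1.03 and 0.12.

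The fall did not follow brightness closely among the subunits themselves: over the 69 bright subunits the mean difference and the mean level had a Pearson correlation of 0.22 and a Spearman correlation of 0.21, a description over genes that share the same arrays. The 5 untested subunits had too little signal. They were the tissue-limited isoforms COX6B2, COX7A1, COX7B2 and COX8C, and ATP5MF, a small membrane subunit of the ATP synthase whose only assigned probe set had a mean of 4.87.

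Promoter sequence is shown here for members that fell and for members not called, since factors known to control these genes have characteristic sites there. Windows of 300 bases, from 250 before to 50 after the start, came from RefSeq annotation on GRCh38.p14, which held 76 windows for 64 of the subunit genes and 35116 windows in all. Both strands were searched for GCGC and TGCGC with any 1 base between them (nuclear respiratory factor 1), CCGGAAG (ETS family, to which GABPA belongs), AAGATGGCG (YY1), AAGGTCA (estrogen-related receptors) and GGGCGG (SP1). CCGGAAG and AAGATGGCG can share the bases AAG. The stretches below are the 200 bases before the start, written along the gene's strand, with matches to the first 4 motifs in capitals, on whichever strand they lie. The first 6 genes fell and the last 2, SDHA and COX5B, were not called. They are examples that each hold a match, and do not stand for all subunits. Among subunits with a rounded mean difference of -0.70 or lower, NDUFA2, NDUFB3, NDUFB1, COX7B and ATP5MC1 had none of the first 4 motifs in their windows. NDUFA3, UQCR10, COX6B1 and ATP5MJ had at least 1 of them, and SDHC and ATP5MC3 had no window.
NDUFA3: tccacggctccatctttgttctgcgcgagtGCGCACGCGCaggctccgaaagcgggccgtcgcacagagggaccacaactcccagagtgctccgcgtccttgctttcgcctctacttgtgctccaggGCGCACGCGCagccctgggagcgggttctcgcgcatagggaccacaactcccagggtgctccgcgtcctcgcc
NDUFB4: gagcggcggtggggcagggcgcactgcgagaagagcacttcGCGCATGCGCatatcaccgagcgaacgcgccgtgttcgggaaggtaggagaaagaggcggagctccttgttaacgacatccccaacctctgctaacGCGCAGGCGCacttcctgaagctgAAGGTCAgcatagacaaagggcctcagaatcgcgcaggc
SDHD: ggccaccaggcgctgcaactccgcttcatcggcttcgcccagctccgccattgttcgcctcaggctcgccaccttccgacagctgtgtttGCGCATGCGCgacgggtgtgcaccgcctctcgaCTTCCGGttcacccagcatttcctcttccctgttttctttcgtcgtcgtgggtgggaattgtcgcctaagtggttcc
UQCR11: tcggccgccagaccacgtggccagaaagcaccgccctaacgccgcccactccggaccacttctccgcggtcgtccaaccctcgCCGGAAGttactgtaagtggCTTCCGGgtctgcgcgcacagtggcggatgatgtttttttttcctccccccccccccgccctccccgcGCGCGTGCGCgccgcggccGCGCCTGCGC
COX6B1: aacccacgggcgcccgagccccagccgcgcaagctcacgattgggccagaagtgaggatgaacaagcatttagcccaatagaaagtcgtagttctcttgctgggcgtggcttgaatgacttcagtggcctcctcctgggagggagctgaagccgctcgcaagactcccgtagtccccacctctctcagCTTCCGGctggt
ATP5PF: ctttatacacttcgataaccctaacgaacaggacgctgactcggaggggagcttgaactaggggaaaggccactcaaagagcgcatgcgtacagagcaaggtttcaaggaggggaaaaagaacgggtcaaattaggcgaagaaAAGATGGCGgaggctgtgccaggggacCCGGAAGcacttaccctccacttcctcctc
SDHA: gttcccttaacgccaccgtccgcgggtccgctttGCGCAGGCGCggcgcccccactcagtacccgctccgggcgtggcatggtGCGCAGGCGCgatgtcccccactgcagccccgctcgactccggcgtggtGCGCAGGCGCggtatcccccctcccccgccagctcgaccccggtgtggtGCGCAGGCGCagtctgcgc
COX5B: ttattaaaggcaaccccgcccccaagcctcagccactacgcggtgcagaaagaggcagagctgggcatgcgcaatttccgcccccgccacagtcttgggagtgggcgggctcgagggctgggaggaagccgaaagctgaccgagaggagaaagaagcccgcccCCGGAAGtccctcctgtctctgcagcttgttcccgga

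These stretches lie at chr19:54102655-54102854 (plus strand) for NDUFA3, chr3:120596136-120596335 (plus) for NDUFB4, chr11:112086673-112086872 (plus) for SDHD and chr19:1605463-1605662 (minus) for UQCR11. COX6B1 lies at chr19:35648123-35648322 (plus), ATP5PF at chr21:25735055-25735254 (minus, 1 of its 2 starts), SDHA at chr5:218120-218319 (plus) and COX5B at chr2:97645862-97646061 (plus). Counting backwards from the start, with -1 as the base before it, the SDHA promoter held 4 matches to the nuclear respiratory factor 1 motif at -166, -117, -68 and -19. The NDUFA3 promoter held 2, at -170 and -73. That of UQCR11 held 2 of them at -29 and -10 and 2 ETS matches at -117 and -97. ATP5PF had a YY1 match at -57 and an ETS match at -30.

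All 5 motifs searched were in a larger share of subunit windows than of windows at large, by count and with no test, and by the least for GGGCGG. The nuclear respiratory factor 1 motif was in 21.1% of subunit windows, 7.38% of protein-coding windows and 5.78% of all windows. CCGGAAG was in 26.3%, 12.8% and 10.3% of them, AAGATGGCG in 11.8%, 2.41% and 1.75%, and AAGGTCA in 14.5%, 3.22% and 3.92%. GGGCGG was common everywhere, in 60.5%, 56.3% and 45% of the windows. Between the 44 windows of subunits that fell and the 29 of subunits not called, the shares were 22.7% and 17.2% for the nuclear respiratory factor 1 motif, 31.8% and 20.7% for CCGGAAG, 9.09% and 17.2% for AAGATGGCG, and 15.9% and 13.8% for AAGGTCA. The motifs were thus present in both sets of promoters, and the shares were not tested against each other. A match is a run of letters and does not show that a factor binds there.

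Complex I, the NADH dehydrogenase, had 18 of its 33 subunits lower and 0 higher, with a median difference of -0.37. Of the NDUFB subunits, which are accessory subunits in the membrane arm, 8 of 11 fell (median -0.47), and 7 of 13 NDUFA subunits fell (median -0.37). Of the 5 core subunits measured here, which carry the catalytic cofactors or lie next to them, NDUFV2 alone fell, at -0.39 ± 0.29 (SD, n = 4 lines; adjusted p = 0.048), and the median was -0.34. Of the 4 remaining accessory subunits, NDUFC1 and NDUFS6 fell, and the median was -0.24. Differences between these groups were not tested.

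NDUFA2, a small accessory subunit of the peripheral arm, had levels of 11.04, 11.55, 11.48 and 12.15 with DMSO in ACHN, CAKI2, A498 and CAKI1, and 9.88, 10.77, 10.20 and 11.24 with A939572 (lines are in this order throughout). Each treated array was lower than its own control, and CAKI1 treated cells still lay above ACHN controls, so the groups overlapped. The mean log2 difference was -1.03 ± 0.23 (SD, n = 4 lines; adjusted p = 0.000715), which leaves 49% of the DMSO level, the lowest share among the tested subunits. With its dim other probe sets averaged in, the value was -0.55 and the call was lost (adjusted p = 0.0849). NDUFB3 had 12.05, 13.04, 12.67 and 12.08 with DMSO and 11.54, 12.11, 11.35 and 11.49 with A939572, a difference of -0.84 ± 0.37 (adjusted p = 0.00281). Its fall was deepest in A498, at -1.32, and shallowest in ACHN, at -0.51. NDUFB1, another membrane-arm subunit, went from 12.36, 12.96, 12.30 and 12.43 to 11.75, 12.02, 11.42 and 11.83, with no overlap between the groups (-0.76 ± 0.18, adjusted p = 0.00137).

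NDUFA3 and NDUFB10 completed the 5 deepest falls of complex I. NDUFA3, whose promoter is printed above, had 10.80, 11.14, 11.61 and 11.56 with DMSO and 10.06, 10.50, 10.75 and 11.00 with A939572 (-0.70 ± 0.13, adjusted p = 0.00261). NDUFB10 had 13.00, 13.10, 12.26 and 11.95 with DMSO and 12.41, 12.56, 11.60 and 11.16 with A939572 (-0.65 ± 0.11, adjusted p = 0.00199). In both genes all 4 lines were lower and the groups overlapped. The rest of the subunits of this complex that fell ranged from -0.60 for NDUFB6 to -0.34 for NDUFC1, and included NDUFA1, NDUFA7, NDUFA9, NDUFA12, NDUFA13, NDUFB2, NDUFB4, NDUFB7, NDUFB11 and NDUFS6.

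The smallest mean differences of complex I lay close to 0. NDUFS1, the largest core subunit and a carrier of iron-sulfur clusters, had 12.20, 11.28, 11.80 and 11.58 with DMSO and 12.25, 11.41, 11.81 and 11.47 with A939572, a difference of 0.02 ± 0.11 (adjusted p = 0.905). Of its dimmer probe sets above the testing level, 1 gave -0.19 ± 0.15 and another -0.24 ± 0.17. NDUFS4, an accessory subunit that is needed for the NADH-binding module, had -0.01 ± 0.23, with 0.15 and 0.18 in ACHN and CAKI2 and -0.32 and -0.07 in A498 and CAKI1. NDUFAB1, the acyl carrier protein that is both a complex I subunit and part of mitochondrial fatty acid synthesis, had the highest mean difference, at 0.12 ± 0.11 (adjusted p = 0.361), and was the only subunit of complex I with 0 lines lower.

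In complex II, which links the TCA cycle to the chain, 2 of the 3 subunits measured fell. SDHC and SDHD are the membrane anchors and SDHA is the flavoprotein that oxidizes succinate. SDHC had 12.40, 11.91, 11.66 and 12.25 with DMSO and 11.68, 11.64, 10.67 and 11.38 with A939572, a difference of -0.71 ± 0.32 (SD, n = 4 lines; adjusted p = 0.0048). Its fall was largest in A498, at -1.0, and smallest in CAKI2, at -0.27. Of its 7 probe sets, the 4 brightest gave -0.71, -0.61, -0.64 and -0.62. The brightest not marked by its name as able to match several transcripts gave -0.06 ± 0.21. The others of that kind gave -0.67 ± 0.15 and 0.29 ± 0.46. The call was lost where only such unmarked probe sets were used (adjusted p = 0.807 in limma).

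SDHD had 12.47, 12.13, 11.52 and 12.29 with DMSO and 12.01, 11.78, 10.96 and 11.62 with A939572. All lines were lower, with a difference of -0.51 ± 0.14 (adjusted p = 0.00823). When its dim second probe set was averaged in, the value was -0.25 (adjusted p = 0.507). SDHA had 11.75, 10.77, 11.97 and 11.52 with DMSO and 10.82, 10.51, 11.52 and 11.45 with A939572. Its difference of -0.43 ± 0.37 did not pass (adjusted p = 0.0586), with -0.93 in ACHN against -0.07 in CAKI1, and it passed when CAKI1 was left out (-0.54, adjusted p = 0.0453).

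Complex III, the cytochrome bc1 complex, had 4 of 7 subunits lower, with a median of -0.36. CYC1, which encodes the haem-carrying cytochrome c1, fell, as did the small subunits UQCR10, UQCRQ and UQCR11. The large core proteins UQCRC1 and UQCRC2, which have no redox group, were not called. UQCR10 had 12.73, 13.10, 13.16 and 12.55 with DMSO and 12.05, 12.25, 12.21 and 11.95 with A939572, with no overlap (-0.77 ± 0.16, SD, n = 4 lines; adjusted p = 0.00101). A dimmer probe set, not marked by its name as able to match several transcripts, gave -0.02 ± 0.34 for UQCR10.

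CYC1 had 12.04, 11.76, 11.68 and 12.69 with DMSO and 11.37, 11.32, 11.17 and 12.13 with A939572. The 4 differences lay between -0.67 and -0.44, a mean of -0.55 ± 0.09 (adjusted p = 0.00517). UQCRQ had 13.08, 13.32, 13.48 and 13.75 with DMSO and 12.65, 13.07, 12.99 and 13.31 with A939572 (-0.40 ± 0.10, adjusted p = 0.0108). UQCR11, whose promoter is also printed above, was at -0.36 ± 0.14 (adjusted p = 0.0265). UQCRC2 had 13.21, 11.66, 12.90 and 13.11 with DMSO and 13.01, 12.21, 12.77 and 12.81 with A939572, a mean difference of -0.02 ± 0.39 (adjusted p = 0.928). CAKI2, the line with the lowest control level of this gene, was 0.55 higher with A939572, whereas the other lines were between -0.29 and -0.14. The second probe set of UQCRC2, with a mean level of 12.01, gave -0.29 ± 0.45, with 0.33 in CAKI2. UQCRC1 had -0.30 ± 0.17 (adjusted p = 0.105) and UQCRB -0.32 ± 0.27 (adjusted p = 0.0558), each below 0 in 4 lines.

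In complex IV, cytochrome c oxidase, 6 of 12 tested subunits fell and 0 rose, with mean differences from -0.78 to 0.11. Of the 10 ubiquitous nuclear subunits, 6 fell: COX5A, COX6B1, COX6C, COX7B, COX7C and COX8A. COX4I1, COX5B, COX6A1 and COX7A2 were not called. The median over the 12 tested subunits was -0.35.

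COX7B, a small membrane subunit, had 12.98, 13.53, 13.73 and 13.83 with DMSO and 11.93, 13.11, 12.70 and 13.22 with A939572, the deepest fall of the complex at -0.78 ± 0.31 (SD, n = 4 lines; adjusted p = 0.00204). ACHN and A498 fell by about the same amount, at -1.05 and -1.04. COX6B1, which lies between the monomers of the oxidase dimer, had 12.23, 12.92, 12.42 and 12.81 with DMSO and 11.63, 12.37, 11.45 and 11.94 with A939572 (-0.75 ± 0.21, adjusted p = 0.00163). COX8A, a small subunit that spans the membrane, had 12.67, 13.22, 12.71 and 13.73 with DMSO and 12.17, 12.53, 11.99 and 13.30 with A939572 (-0.59 ± 0.14, adjusted p = 0.00263). In all 3 genes every line was lower and the groups overlapped because the lines start from different levels. COX7C had -0.47 ± 0.23 (adjusted p = 0.00884), COX6C -0.39 ± 0.12 (adjusted p = 0.0103) and COX5A -0.36 ± 0.10 (adjusted p = 0.0164).

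COX4I1, the regulatory subunit that binds ATP, had 14.23, 14.02, 14.19 and 14.31 with DMSO and 14.31, 13.81, 13.96 and 14.29 with A939572. Its difference was -0.09 ± 0.16 (adjusted p = 0.468), with ACHN slightly higher and the other lines at or below 0. COX6A1 was at 14.45, 14.11, 14.01 and 14.32 with DMSO and 14.46, 14.05, 13.88 and 14.18 with A939572 (-0.08 ± 0.07, adjusted p = 0.485). COX5B had -0.12 ± 0.11 (adjusted p = 0.356) and COX7A2 -0.25 ± 0.24 (adjusted p = 0.119). A p above the threshold does not show that these subunits did not differ.

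The 6 tissue-limited isoforms of complex IV, known from muscle, lung or testis, gave little signal. COX4I2, the partner of COX4I1 that is known in lung and under low oxygen, had between 6.63 and 7.53 on the 8 arrays and a difference of -0.33 ± 0.45 (adjusted p = 0.369). COX6A2, the heart and muscle partner of COX6A1, had between 6.24 and 7.17 (0.11 ± 0.50, adjusted p = 0.811). COX6B2, COX7A1, COX7B2 and COX8C had means of 5.82, 4.58, 5.59 and 4.66 and were not tested. Their ubiquitous partners COX6B1, COX7B and COX8A fell, while COX7A2 was not called.

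Complex V, the ATP synthase, had 12 of 16 tested subunits lower and 0 higher, with a median of -0.39, and 15 of the 16 were below 0 in all 4 lines. All 3 c-ring genes fell (median -0.70). ATP5MC1, ATP5MC2 and ATP5MC3 encode the same mature subunit c, whose ring turns as protons pass, behind different import signals. Of the F1 head subunits, which make the ATP, 4 of 5 fell (median -0.35), and of the peripheral stalk, which holds the head still, 2 of 4 (median -0.29). Of the small membrane subunits 3 of 4 fell (median -0.57).

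ATP5MC1 had 10.70, 11.82, 11.98 and 10.91 with DMSO and 9.98, 11.20, 10.95 and 10.13 with A939572, a difference of -0.79 ± 0.17 (SD, n = 4 lines; adjusted p = 0.00178). It lay at 57.9% of the DMSO level, with the largest fall in A498. ATP5MC3 had 14.00, 14.20, 14.06 and 14.00 with DMSO and 13.05, 13.71, 13.35 and 13.36 with A939572 (-0.70 ± 0.19, adjusted p = 0.00113). Its control levels were close together in the 4 lines, and all treated arrays lay below them. ATP5MC2 had -0.38 ± 0.25 (adjusted p = 0.0345), with -0.08 in CAKI1.

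The small membrane subunits ATP5MJ, ATP5MG and ATP5ME support the dimer of the synthase. ATP5MJ had 12.73, 12.90, 12.57 and 12.92 with DMSO and 11.82, 12.18, 11.92 and 12.42 with A939572 (-0.70 ± 0.17, adjusted p = 0.00175), and ATP5ME had 12.64, 13.09, 13.01 and 12.71 against 11.90, 12.59, 12.42 and 12.29 (-0.56 ± 0.14, adjusted p = 0.00377). In both the groups did not overlap. ATP5MG had 13.73, 13.91, 13.62 and 14.28 with DMSO and 13.30, 13.30, 12.93 and 13.73 with A939572 (-0.57 ± 0.11, adjusted p = 0.00182). The fourth of them, ATP5MK, had 14.28, 14.26, 14.32 and 14.45 with DMSO and 14.08, 14.24, 14.10 and 14.34 with A939572, which did not pass (-0.14 ± 0.09, adjusted p = 0.232).

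In the F1 head, ATP5F1C, the central shaft, fell by 0.47 ± 0.23, ATP5F1E by 0.40 ± 0.15, and the alpha and beta subunits ATP5F1A and ATP5F1B by 0.35 ± 0.10 and 0.31 ± 0.15 (SD, n = 4 lines; adjusted p = 0.00987, 0.00997, 0.0121 and 0.0306). ATP5F1D, at -0.31 ± 0.19, did not pass (adjusted p = 0.113). In the stalk, ATP5PF and ATP5PD fell by 0.41 ± 0.07 and 0.35 ± 0.22 (adjusted p = 0.0102 and 0.0288). ATP5PO had -0.23 ± 0.29 (adjusted p = 0.18), and its second probe set, with a mean level of 10.88, had 0.39 ± 0.35. ATP5PB had 13.75, 13.39, 13.79 and 13.80 with DMSO and 13.60, 13.33, 13.41 and 13.75 with A939572 (-0.16 ± 0.15, adjusted p = 0.239).

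**Figure D2:**
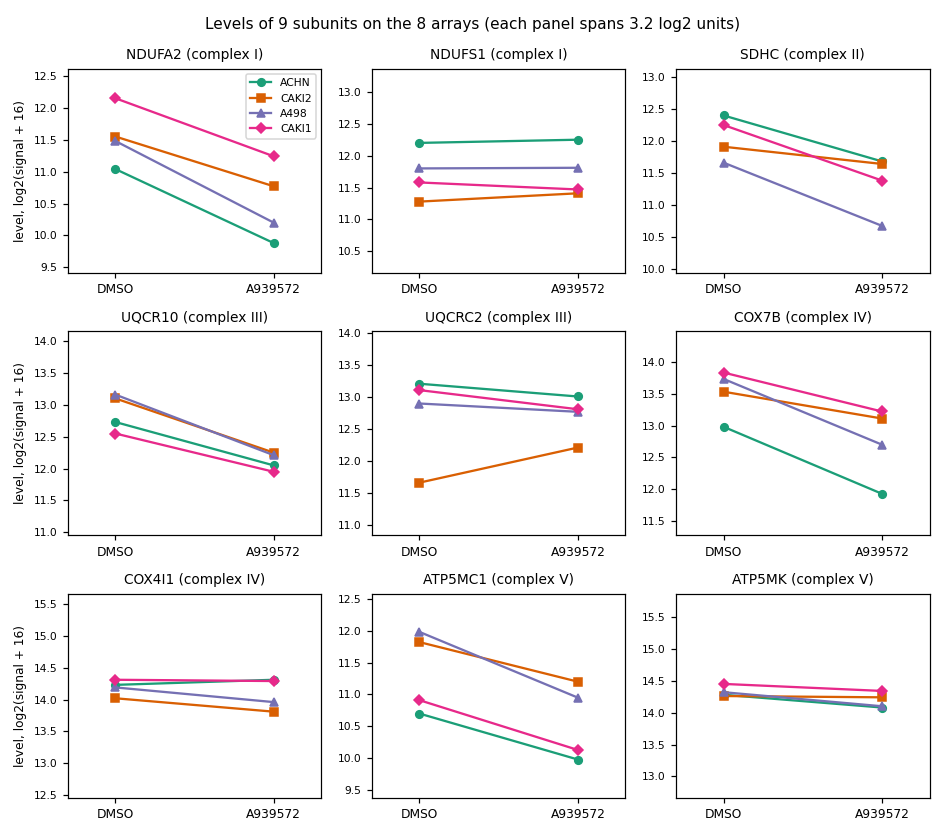
Levels of 9 subunits, as log2(signal + 16), on the DMSO and A939572 arrays of each line, 1 panel per gene with lines joining the 2 arrays of a cell line. NDUFA2, SDHC, UQCR10, COX7B and ATP5MC1 were lower in all 4 lines, whereas NDUFS1, COX4I1 and ATP5MK ran nearly level and UQCRC2 was 0.55 higher in CAKI2.

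Of the 5 genes taken by the rule that encode no subunit, ATP5IF1 fell. It encodes the inhibitor that stops the ATP synthase from running backwards, and it had 11.12, 11.81, 11.15 and 10.69 with DMSO and 10.54, 11.33, 10.47 and 9.95 with A939572 (-0.62 ± 0.12, SD, n = 4 lines; adjusted p = 0.00445). COX7A2L, which joins complexes III and IV into supercomplexes, differed in direction between lines, from -0.38 in A498 through 0.10 in CAKI2 and 0.38 in CAKI1 to 0.74 in ACHN (0.21 ± 0.47, adjusted p = 0.371). NDUFB2-AS1, NDUFV1-DT and NDUFV2-AS1 had -0.13 ± 0.38, 0.18 ± 0.29 and 0.35 ± 0.36, and none was called. The probe sets' strand was not examined here, so signal from an antisense gene and its partner may not be separated.

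The 4 lines responded in the same direction and to different extents. The subunits' median difference was deepest in A498, at -0.53, then -0.41 in ACHN, -0.40 in CAKI1 and -0.28 in CAKI2. Over all genes it lay between -0.04 and -0.01. Subunits below 0 made up 88.7%, 91.5%, 95.8% and 94.4% of the 71 in these lines, against 50.6% to 52.6% of all genes. With 1 array against 1 in each line, no test within a line is possible.

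**Figure D3:**
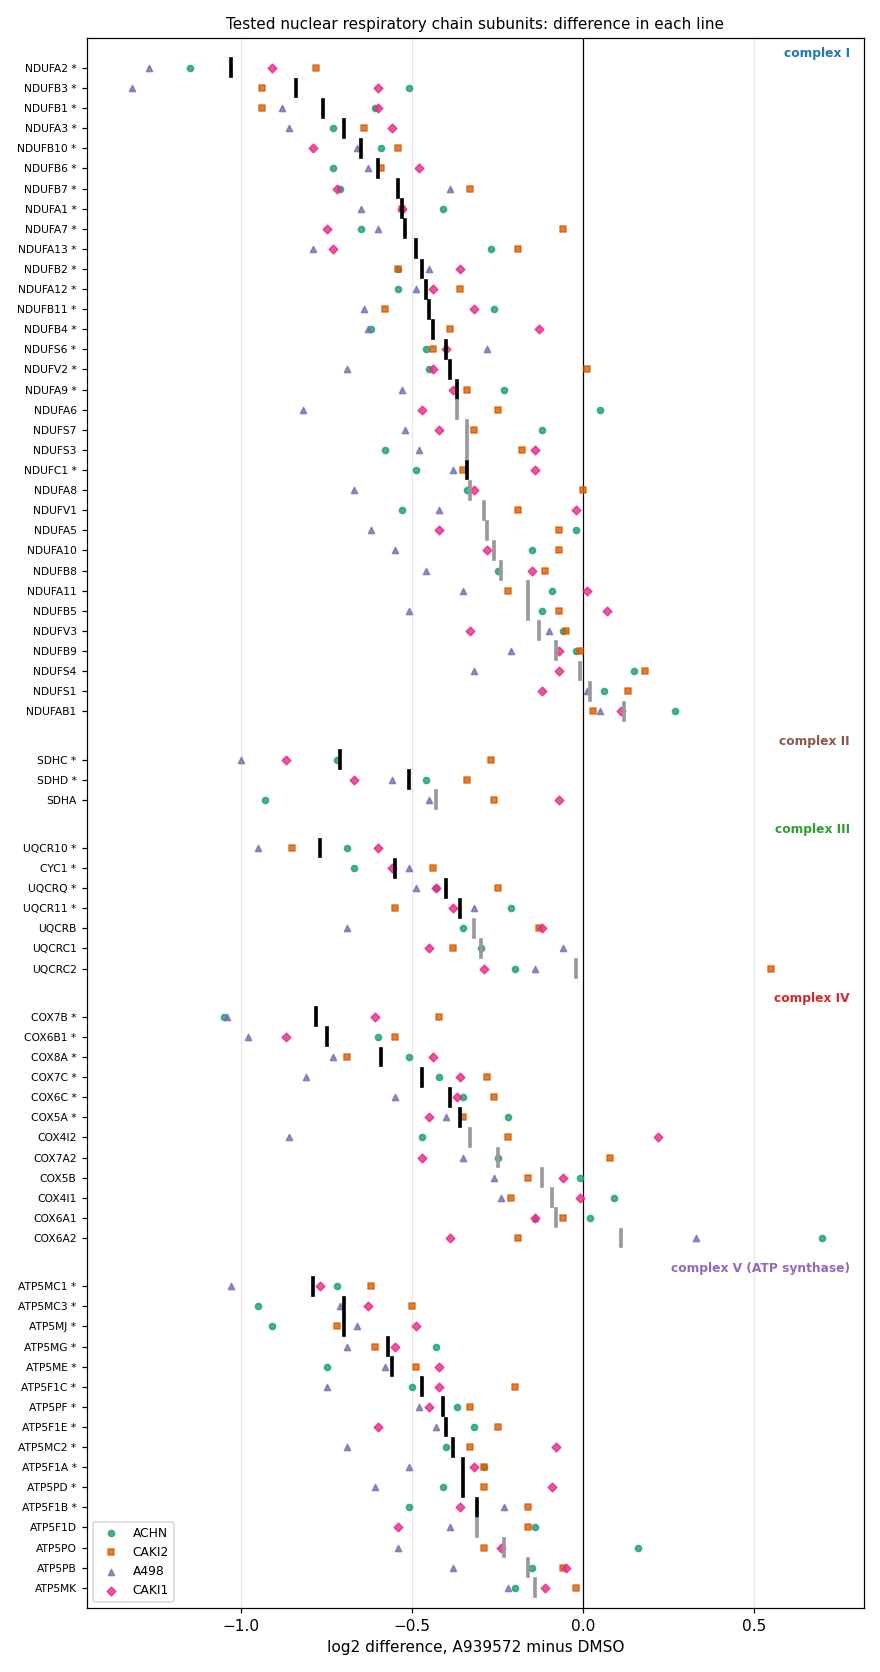
Log2 difference, A939572 minus DMSO (horizontal axis), of each of the 71 tested subunits in ACHN, CAKI2, A498 and CAKI1 (1 marker per line), ordered by mean within complexes, with a bar at the mean, black and with a star where the subunit fell and grey otherwise. Nearly all markers lie left of 0, and the lowest is NDUFB3 in A498, at -1.32.

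A498 showed the deepest fall most often. It had the lowest difference of the 4 lines for 40 of 71 subunits (56.3%), against 14 each in ACHN and CAKI1 and 3 in CAKI2 (4.23%). Among the 42 subunits that fell the counts were 23 in A498 (54.8%), 11 in ACHN, 6 in CAKI1 and 2 in CAKI2. Among all 1928 genes that fell, A498 had the deepest fall in 22.7%, ACHN in 35%, CAKI2 in 26.5% and CAKI1 in 15.8%. The count for A498 was 32 with median centring and 43 without further normalization. The order of the lines depended on that choice: with median centring ACHN had the smallest median, -0.24, and CAKI2 -0.29. The difference between lines rests on 1 pair of arrays each and was not tested.

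By complex, A498 had medians of -0.53 for I, -0.56 for II, -0.49 for III, -0.48 for IV and -0.56 for V, and CAKI2 had -0.25, -0.27, -0.38, -0.24 and -0.29. ACHN had its lowest median for complex II, at -0.72, where SDHA contributed -0.93. Across the 69 bright subunits, the differences of any 2 lines had Pearson correlations between 0.52 and 0.64, so subunits with deep falls in 1 line tended to have them in the others. The points of these correlations share arrays, and no p is given for them.

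**Figure D4:**
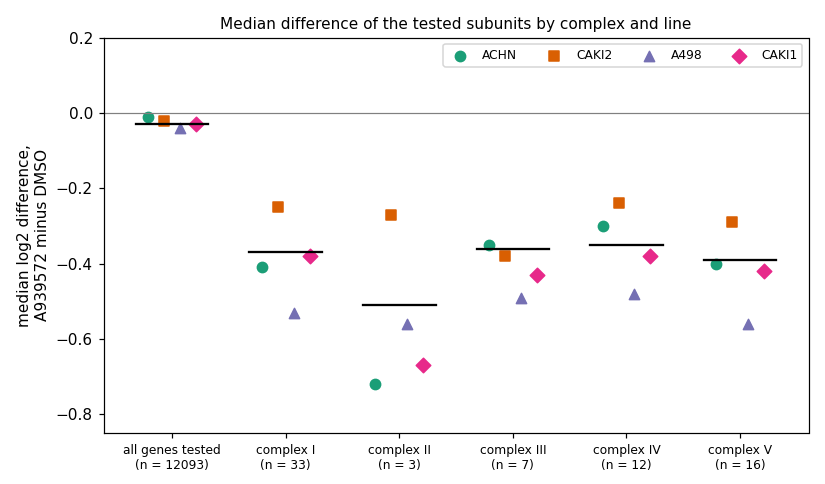
Median log2 difference, A939572 minus DMSO (vertical axis), over the tested subunits of complexes I to V and over all genes tested, with 1 marker per cell line and a bar at the median of the means over the 4 lines. Every complex lies below 0 in each line, from -0.72 for complex II in ACHN to -0.24 for complex IV in CAKI2, and the medians over all genes lie between -0.04 and -0.01.

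The call did not rest on a single line for most subunits that fell. Leaving out each line in turn, 30 to 35 of the 42 kept their call, and 28 kept it whichever line was left out. Without A498 the count for complex I went from 18 to 11. For NDUFA9 the call ended without any 1 of the 4 lines. It ended for NDUFA7, NDUFV2 and ATP5F1B without ACHN, A498 or CAKI1, for UQCR11 without CAKI2, A498 or CAKI1, and for NDUFC1, ATP5MC2 and ATP5PD without ACHN, CAKI2 or A498. For NDUFA13 and COX5A it ended without A498 or CAKI1, and for NDUFB11 without CAKI2 or A498. NDUFB4 lost it without ACHN or A498, NDUFB7 without ACHN or CAKI1, and NDUFS6 without ACHN or CAKI2.

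Of the 156 probe sets of the members, 128 had a mean level above the testing limit. Setting aside the brightest of each gene, 52 of these remained, and 42 of them had a mean difference below 0. Of the 32 members with more than 1 such probe set, 12 had probe sets of opposite direction: ATP5F1D, ATP5F1E, ATP5PB, ATP5PO, NDUFB1, NDUFB2, NDUFB7, NDUFB8, NDUFS1, NDUFV2-AS1, SDHC and UQCRC2. For NDUFB1 and NDUFB7 the opposing probe set was dim, with a mean of 7.11 (0.25 ± 0.75) and 6.84 (0.14 ± 0.75). Many of these genes have processed pseudogenes of near-identical sequence, and probe sets that can match several transcripts may include them. Those probe sets, told by the ending of their names, were then left out. Of the 53 subunits that could still be tested, 22 were lower (41.5%), beside 14.6% of all genes in that fit. Of the 42 subunits that fell in the main fit, 29 had a value there, 27 of these were below 0 and 19 kept their call. Among those that lost it were ATP5F1C at -0.17, ATP5PD at -0.11, COX5A at -0.21 and NDUFB4 at -0.04.

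Levels of the subunits also differed between the lines. An F-test of the line terms in the same limma fit, which compares the lines over both arrays of each, called 54 of 71 subunits (76.1%), against 61% of all genes and 70.5% of genes with a mean level of at least 9.5. The share of subunits is close to that of these bright genes, so it is no result about the subunits. By complex the F-test called 28 of 33 for I, 3 of 3 for II, 4 of 7 for III, 7 of 12 for IV and 12 of 16 for V. The DMSO levels alone, with 1 array per line, are given below as a description and were not tested. The median range between the highest and the lowest DMSO array was 0.92 for complex I, 0.95 for II, 0.78 for III, 0.48 for IV and 0.61 for V, beside 1.02 over all genes and 0.89 over the bright ones.

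NDUFA9, a complex I subunit near the ubiquinone site, had the widest range in control cells, with DMSO levels from 10.50 in A498 through 11.36 in CAKI2 and 11.86 in CAKI1 to 12.41 in ACHN (adjusted p = 5.44e-05 in the F-test over both arrays of each line). In the other complexes the widest ranges among tested subunits were 1.20 for SDHA, 1.55 for UQCRC2, 1.06 for COX8A and 1.41 for ATP5PO. UQCRC2 had 11.66 in CAKI2 and between 12.90 and 13.21 in the other lines, and COX8A had 13.73 in CAKI1 and between 12.67 and 13.22 elsewhere. ATP5PO was highest in CAKI2, at 14.41, and lowest in CAKI1, at 13.00.

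CAKI1 held the highest control level for 21 of the 54 subunits called between lines (38.9%) and the lowest for 4 (7.41%). Over all genes called between lines these shares were 24.7% and 24.2%. Its level was above the mean of the 4 lines for 22 of 33 subunits of complex I, 6 of 7 of complex III, 11 of 12 of complex IV and 9 of 16 of complex V, where CAKI2 was above it for 10. The lowest control level was most often in ACHN, for 19 subunits, or in A498, for 18.

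**Figure D5:**
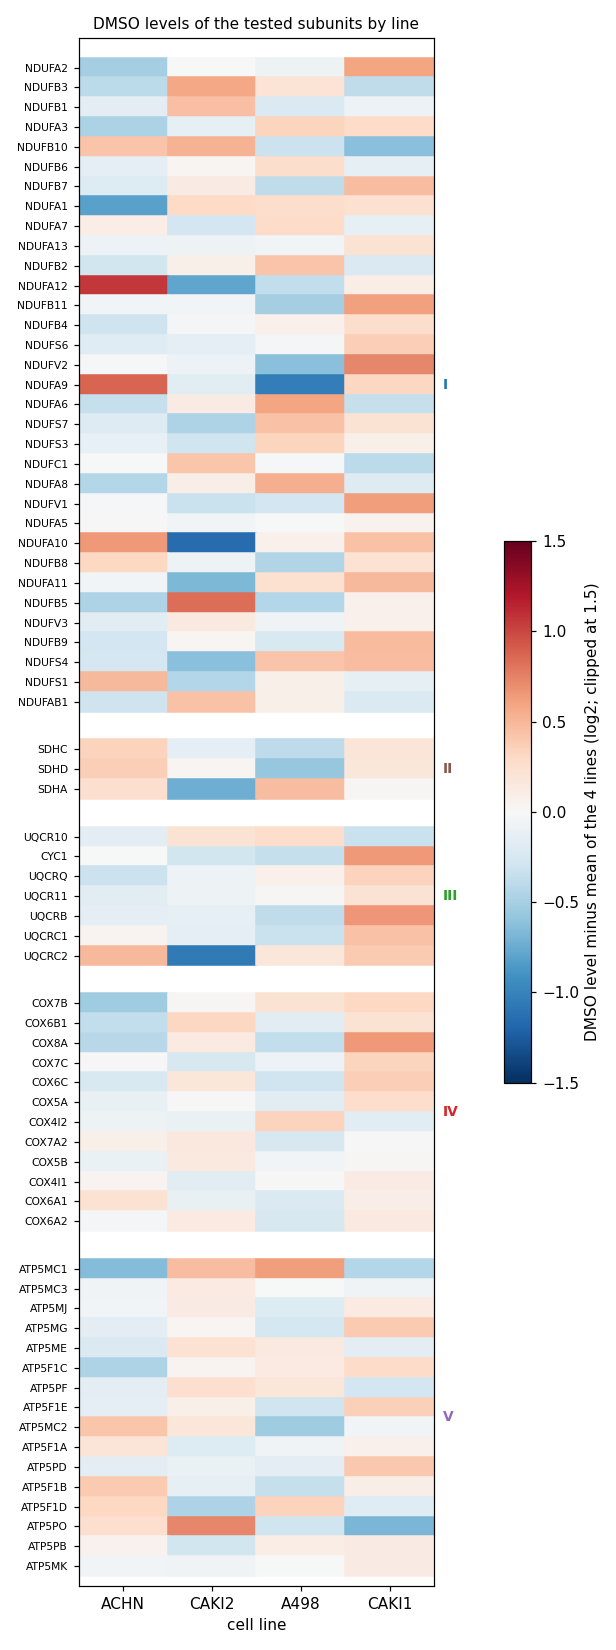
DMSO level of each tested subunit in each line minus the mean of the 4 lines (colour, in log2 units, clipped at 1.5), with subunits in rows grouped by complex and lines in columns. CAKI1 is above the mean for 11 of 12 subunits of complex IV, and the strongest contrasts are in complex I, such as NDUFA9 between ACHN and A498.

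Genes that act with the chain but are not its subunits were counted in the same fit. Of the assembly factors, PET100 and COX16, which help to build complex IV, fell the most, by 1.08 ± 0.11 and 0.99 ± 0.31 (SD, n = 4 lines; adjusted p = 0.000551 and 0.00101). Complex IV assembly had 6 of 25 tested genes lower and 1 higher (median -0.26). COX11, a copper chaperone, was among those that fell (-0.67 ± 0.27, adjusted p = 0.00415), and COX19, which acts in the same copper pathway, rose (0.73 ± 0.33, adjusted p = 0.0137). Complex I assembly had 2 of 16 lower, COA1 (-0.72 ± 0.17) and NDUFAF8 (-0.65 ± 0.21), and 1 higher, TMEM186 (0.54 ± 0.13), with a median of -0.15. For complex II assembly SDHAF3 and SDHAF4 fell (-0.86 ± 0.16 and -0.81 ± 0.54), 2 of 4. For complex III assembly UQCC3 fell (-0.92 ± 0.25), 1 of 5. Of the 8 ATP synthase assembly and control genes, ATP5IF1 alone fell. These shares, other than the small complex II list, lie nearer to the 15.9% of all genes lower than that of the subunits does.

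The electron carriers, chiefly enzymes of ubiquinone synthesis, had 3 of 15 lower (20%) and a median of 0.04. COQ3, COQ2 and PDSS1, all of the ubiquinone pathway, fell by 1.05 ± 0.30, 0.78 ± 0.13 and 0.74 ± 0.50 (SD, n = 4 lines; adjusted p = 0.00147, 0.00199 and 0.0179). Of the TCA cycle and pyruvate dehydrogenase genes 4 of 16 fell (25%) and 0 rose in the limma fit (7 and 0 at an unadjusted p under 0.05), with a median of -0.27. Both shares are close to the background, 15.9% of all genes and 20.7% of bright ones, so they are no result about these lists. IDH2, the mitochondrial NADP-linked isocitrate dehydrogenase, fell by 0.99 ± 0.37 (adjusted p = 0.00197), and DLAT, SUCLG2 and PDHB by 0.54 ± 0.30, 0.53 ± 0.26 and 0.35 ± 0.19 (adjusted p = 0.0192, 0.0146 and 0.049). The import and inner membrane list had 9 of 19 lower and 2 higher (median -0.28). Prohibitin PHB1, the chaperonin HSPE1, the channel VDAC3 and the import receptor TOMM22 had falls between 0.76 ± 0.26 and 0.64 ± 0.12. HSPA9, the chaperone of the import motor, and TIMM17A, a part of the inner membrane translocase, rose by 0.57 ± 0.06 and 0.49 ± 0.25 (adjusted p = 0.00107 and 0.00888), and were named after their values had been seen.

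Among the known regulators of mitochondrial biogenesis, no gene fell. Of 17 tested, 0 were lower and 2 were higher in the limma fit (1 and 3 at an unadjusted p under 0.05): the mitochondrial transcription factor gene TFB2M (0.51 ± 0.20, SD, n = 4 lines; adjusted p = 0.0102) and TWNK, the mitochondrial DNA helicase (0.46 ± 0.19, adjusted p = 0.0339). The median was 0.14. Of the factors whose motifs were searched above, the list holds NRF1, GABPA, YY1 and ESRRA, but not SP1. Their genes had 0.14 ± 0.24, -0.15 ± 0.16, 0.03 ± 0.07 and 0.16 ± 0.19 in that order, none of them called. TFAM, which packages mitochondrial DNA, had -0.32 ± 0.17 (adjusted p = 0.0631). The coactivator gene PPARGC1A had 0.68, 0.89 and 0.76 in ACHN, CAKI2 and A498 and -1.41 in CAKI1, and the related PPARGC1B had -1.73, 0.39, -1.38 and 0.30, with neither called.

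Of the 7 subunit genes of mitochondrial DNA with a probe set, 0 fell and 1 rose in the limma fit (1 each at an unadjusted p under 0.05), and their median was 0.13. MT-ND2, a complex I subunit listed by the platform as ND2, had 0.42, 0.53, 0.42 and 0.30 in the 4 lines, a mean of 0.42 ± 0.09 (SD, n = 4 lines; adjusted p = 0.00468). MT-ND4, MT-CO1 and MT-ATP6 had 0.16 ± 0.10, 0.13 ± 0.10 and 0.01 ± 0.12, MT-ND6 had 0.16 ± 0.23, MT-CO2 -0.05 ± 0.13 and MT-CO3 -0.36 ± 0.39, with no call. Some of these signals lie at the top of the arrays’ range: MT-CO1, MT-CO2 and MT-ND4 had between 15.09 and 15.81 on the 8 arrays, while the highest mean of any tested gene was 15.73. The part of signal saturation in these small differences was not tested. The difference between nuclear and mitochondrial subunits was not tested.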

How the data were processed

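RNA from 4 lines, each with A939572 and with DMSO, was measured on 8 oligonucleotide arrays. Total RNA was turned into biotin-labelled cRNA, per the labels' protocols. The deposited values are intensity signals on a linear scale, 1 per probe set, and the program that made them is not given in the sources used here. From the values, the authors had scaled each array to one level: the mean after trimming 2% at each end was 500.07 on every array. Array medians lay between 68.6 and 84.2 signal units.

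Of 54675 probe sets, 62 controls were left out, and log2(signal + 16) values were quantile normalized. Probe sets with 1 platform symbol (41091) were assigned to genes, 1801 with several and 11721 unnamed were not, and 41037 matched a current symbol in RefSeq annotation (GRCh38.p14). Each gene took its brightest probe set, and genes at or above a mean of 6.41 were tested. The offset understates the change of dim genes.

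The treatment was tested with limma 3.58.1 in R 4.3.3 (moderated by eBayes along a mean-variance trend, 2-sided, with Benjamini-Hochberg adjustment over all 12093 genes), with the cell line as a block, since each control comes from the same line as its treated array. Deviations from the group means were correlated across genes: arrays of the same line gave 0.818 to 0.864, arrays of different lines at most -0.0303. Centring on the group means itself pushes the values for different lines towards negative ones. The values show that the 2 arrays of a line share its profile, and cannot test whether their cultures were paired. Degrees of freedom were 9.28 and the median SE 0.165. The 8 arrays limit the precision, and with 4 pairs the smallest exact 2-sided p is 0.125. Errors are SDs over lines.

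Members, gene lists, tests and motifs were chosen with earlier results of these data known. Lists are described by counts and medians. Genes named are, per complex, the 5 largest calls, the 2 smallest differences, the widest line difference, members whose probe sets disagree or whose call ends without a line, the tissue-limited isoforms and their partners, and per context list up to 4 of the largest calls. Other genes were named after their values were seen. Alternatives covered normalization, offset, filter, probe sets, variance trend, the block and each line.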

Additional observations from a re-analysis of the deposited data

Results flagged for a closer look

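Among 228 sets of 4 values (each tested member's DMSO levels, A939572 levels and differences), 8 held 1 value far from the other 3, with a gap beyond Dixon's critical value for 4 samples. Chance alone sets apart about 1 group in 20, so 8 of 228 is no more than chance would give.

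NDUFA1, on chromosome X, was low in ACHN in both groups, at 12.04 with DMSO, where the other lines lay between 13.09 and 13.15, and at 11.62 with A939572, where they lay between 12.48 and 12.62. NDUFV1 was high in CAKI1 with A939572, at 11.60 against 10.30 to 10.47. The DMSO level of NDUFA13 was also high in CAKI1, at 12.73 against 12.42 to 12.46, as was that of ATP5PD, at 14.37 against 13.81 to 13.86. ATP5PB was low in CAKI2 with DMSO, at 13.39 against 13.75 to 13.80. ATP5MC2 was low in A498 with A939572, at 12.06 against 13.14 to 13.30. ATP5F1A was the single gene set apart by its difference, at -0.51 in A498 against -0.32 to -0.29 in the other lines.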

How the results depend on the processing

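The main count of 42 subunits lower, with 0 higher, was within 1.5 times of itself under median centring, no further normalization, both other offsets (64 and 1), no filter, a stricter filter, the mean of all probe sets and leaving out any 1 line (30 to 35). Without those lines the counts ran from 11 to 14 for complex I, 2 to 3 for II, 3 to 4 for III, 5 to 6 for IV and 9 to 11 for V, and the median subunit difference from -0.41 to -0.34. The fit without the cell line as a replicate block called 0 subunits in each of the 5 complexes and 29 genes lower and 38 higher in all, as it leaves the differences between lines in the residual. Without the variance trend 23 subunits were lower, 10 of complex I, 2 of III, 3 of IV and 6 of V. Leaving out probe sets able to match several transcripts, 53 subunits were tested and 22 were lower, 9 of complex I, 1 of II and 5 of V, with medians of -0.28 for II and -0.27 for V and 31 subunits called between lines. With the mean of all probe sets complex II had 1 lower. Reversed values were 0.41 for NDUFA7 with that mean (adjusted p = 0.0904), and 0.25 for NDUFB1 (adjusted p = 0.574) and 0.14 for NDUFB7 (adjusted p = 0.771) without such probe sets. The cause was not tested, other than that these values come from dimmer probe sets. Of the 42 subunits, 17 kept their call in every alternative that gave them a value, the fit without the block aside. Signals near background limit the isoforms, ATP5MF and the dim second probe sets.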
